A study of Homo sapiens with 12 samples.

Results

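The splicing and mRNA processing factors described here are 40 genes, taken by name from a deposited table of 1676 genes. A gene was taken when its symbol opened with SNRP, SNRNP, SF3A, SF3B, SRSF, HNRNP, PRPF, LSM and a digit, U2AF, RBM and a digit or X, CPSF, CSTF, NCBP or THOC. Pseudogenes by GENCODE type were to be left out, and none of the matches was one. The genome holds 162 protein-coding genes with such names (GENCODE v29, GRCh38), so the table lists 24.7% of them, against 7.94% of all protein-coding genes. Both shares count annotated genes whether or not the cells express them. A background of expressed genes was not available, so the shares do not show an enrichment. No CPSF gene was among the 40. The 91 rows of the table without a symbol held no further match by gene identifier. The study measured polyadenylated RNA in SH-SY5Y, a human neuroblastoma cell line in long use for work on neurons, after transfection with constructs of the microtubule-binding protein tau. The 4 groups, with 3 libraries each, were Tau-S199E (libraries 10, 11 and 12), Tau-K174Q (4, 5 and 6), Tau-K174Q-S199E (16, 17 and 18) and wild-type tau, Tau-WT (1, 2 and 3). The S199E change, glutamate for serine, mimics phosphorylation, the K174Q change, glutamine for lysine, mimics acetylation, and Tau-K174Q-S199E carries both changes. All 4 groups received a tau construct, the RNA was taken 24 h later, and untransfected cells were not analysed here.

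Most human genes are interrupted by introns, which the spliceosome removes in steps. The U1 particle marks the start of the intron, U2 and its partner U2AF mark the branch point and the intron's end, and the U4/U6.U5 tri-snRNP then brings in the catalytic centre. SR proteins and hnRNPs bind the pre-mRNA and shift the choice of splice sites, often in opposite directions, while cap-binding, 3′ end and export factors act on the same transcript. In neurons alternative splicing is extensive, and the tau transcript is itself a known target of several of these proteins. A 3′ mRNA library of the kind used here reports how much transcript a gene gives, not how the transcript was spliced.

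The deposited library values carry no expression level. Each gene had been scaled to mean 0 and SD 1 over the 12 libraries, so a value or a difference is given in SD units of that gene, levels cannot be compared between genes, and the depth is unknown. Each of the 1676 genes is listed with an adjusted p under 0.05 in a contrast that the header does not name, so the table is a selection. In all 40 members the authors' deposited table gave a fold change with the sign of the interaction described below, of Tau-K174Q-S199E minus Tau-S199E and of Tau-K174Q-S199E minus Tau-K174Q, and with the sign opposite to Tau-S199E minus Tau-WT and to Tau-K174Q minus Tau-WT. Over the table this held for 1676, 1672, 1613, 1676 and 1675 genes. Only the interaction and the reverse of Tau-S199E minus Tau-WT had no exception, and the sign does not decide between them. Limma with moderated variances called all 1676 genes in the interaction and 1650 in Tau-S199E minus Tau-WT. NCBP1, with a deposited log2 fold change of 1.68, lay at -0.14 ± 0.38 in Tau-S199E minus Tau-WT. U2AF1, at 7.71, missed the interaction by limma's ordinary test. Which contrast was deposited was not tested. Calls in these comparisons are not independent of that selection and are given as a description. Tau-S199E library 12 lay far from its group, with an SD over all genes of 1.67, against 0.83 and 0.77 for libraries 10 and 11. Library 18 lay apart from its Tau-K174Q-S199E group. In it 34 of the 40 members (85%; 84.7% of the table) stood on the side of their mean toward which Tau-S199E differed from Tau-WT. The count was 3 members in library 16 (7.5%; 4.77% of the table) and 4 in library 17 (10%; 15.8% of the table). That side is also the side of the Tau-S199E mean in all members but NCBP1. Of 24 markers of mesenchymal neuroblastoma cells 3 were in the table (SNAI2, S100A6 and CD44), and their mean per library was 0.64, 0.66 and 1.83 in the Tau-S199E libraries, 0.49, 0.28 and 0.39 in those of Tau-K174Q, -0.85, -1.0 and 0.67 in those of Tau-K174Q-S199E, and -0.76, -1.32 and -1.02 in those of Tau-WT. None of 18 adrenergic markers was listed, so the identity of the line cannot be checked from these values. Whether the marker genes or libraries 12 and 18 have a part in the results below was not tested beyond the fits without those libraries.

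**Figure D1:**
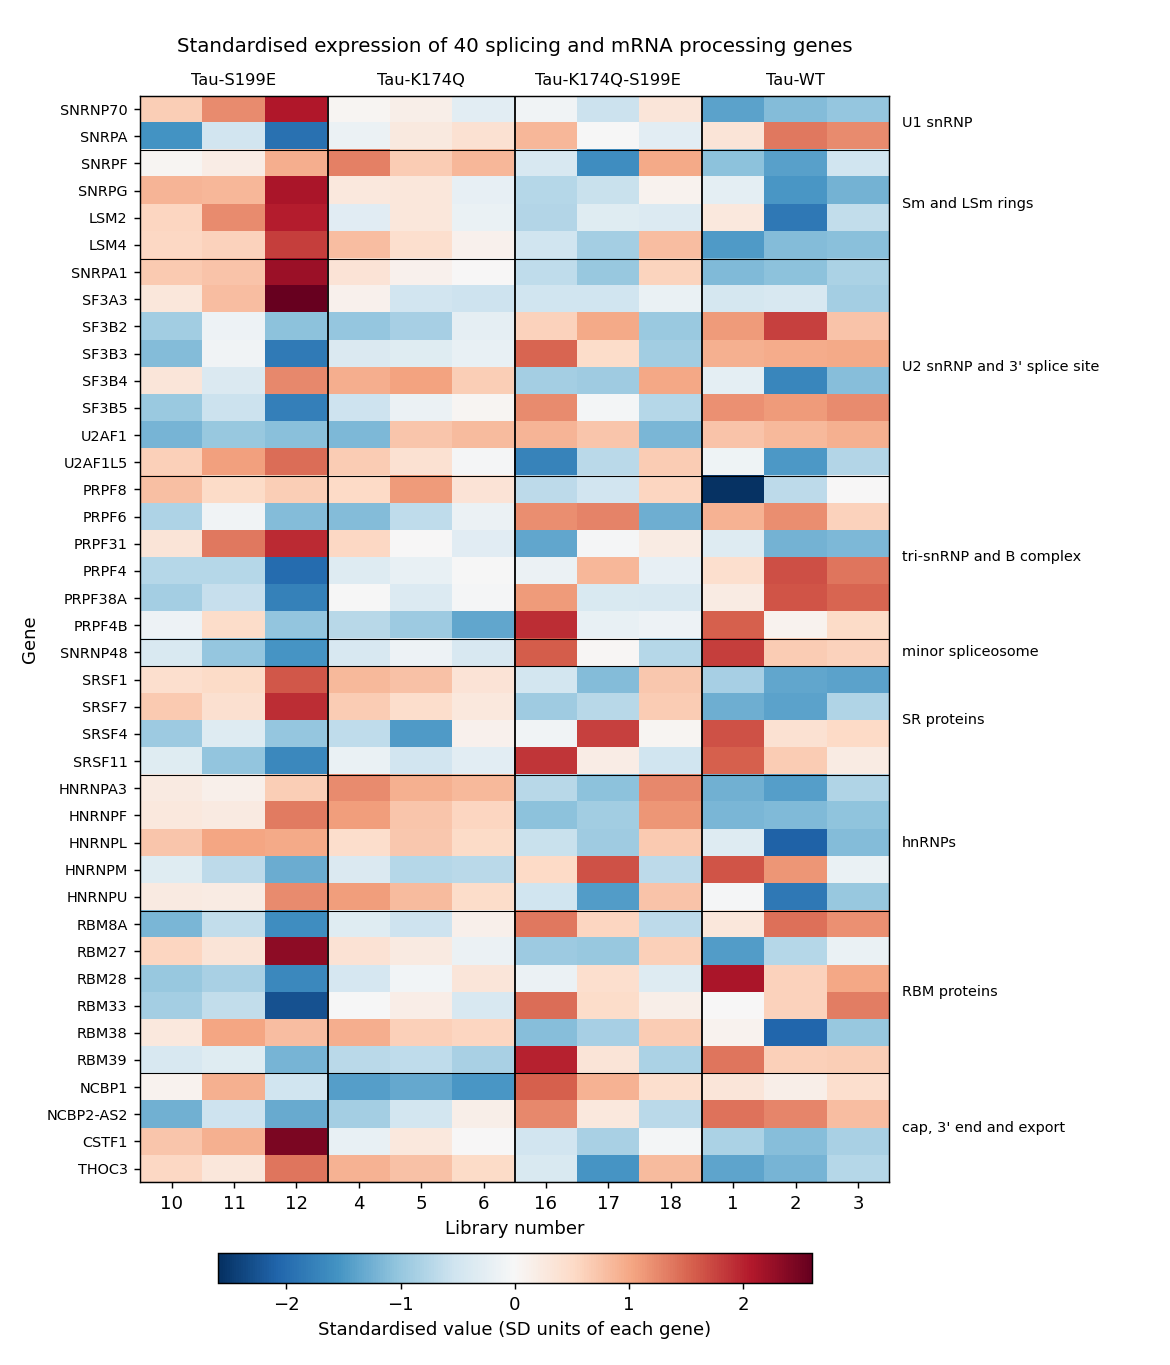
Standardised value (SD units, colour) of each of the 40 genes (vertical axis, grouped by role) in each of the 12 libraries (horizontal axis, grouped by construct). Library 12 of Tau-S199E holds the strongest colours of its group, with SF3A3 at 2.83. In library 18 of Tau-K174Q-S199E 34 of 40 genes stand on the side of their mean toward which Tau-S199E differed from Tau-WT.

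With Tau-S199E, genes of nearly every step of splicing departed from Tau-WT, and they did so in both directions. The gene for the U1 protein SNRNP70 rose while that of its partner SNRPA fell, SRSF1 and SRSF7 rose while SRSF4 and SRSF11 fell, and 3 of the 4 Sm and LSm ring genes rose. By limma with Benjamini-Hochberg adjustment over all 1676 genes, 18 of the 40 members rose (48.3% of the table did) and 16 fell (41.8% of the table), by 1.49 to 2.49 and by 1.54 to 2.41 SD units. In all, 34 members or 85% passed, against 90% of the table, so their share lay near the background. The counts by role below cover at most 8 genes each and are to be read beside the 48.3% and 41.8% of the table. HNRNPU, NCBP1, PRPF4B, PRPF6, SF3B4 and SNRPF did not pass. Without library 12, 10 members rose (28.5% of the table) and 8 fell (21.2% of the table), and without Tau-WT library 1, 14 rose (36.8% of the table) and 10 fell (33.1% of the table). The call held with each library of the pair of groups left out in turn for 17 members, or 42.5%, against 47.8% of the table: SNRNP70, SNRPA, SNRPG, LSM4, SNRPA1, SF3B5, PRPF31, PRPF4, PRPF38A, SRSF1, SRSF7, HNRNPL, RBM8A, RBM28, RBM33, NCBP2-AS2 and CSTF1.

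U1 snRNP was represented by 2 genes that moved in opposite directions with Tau-S199E. SNRNP70 (ENSG00000104852, chr19:49085419-49108605, plus strand) encodes a U1 protein that binds the first stem loop of U1 RNA. Its values were 0.63, 1.23 and 2.09 SD units in Tau-S199E libraries 10, 11 and 12, 0.04, 0.15 and -0.28 with Tau-K174Q, -0.10, -0.55 and 0.31 with Tau-K174Q-S199E, and -1.39, -1.13 and -1.0 with Tau-WT. All Tau-S199E libraries lay above all others, all Tau-WT libraries lay below all others, and the other constructs sat together near the mean. Tau-S199E exceeded Tau-WT by 2.49 ± 0.37 SD units (SE, n = 3 each; limma adjusted p = 0.00968). SNRPA (ENSG00000077312, chr19:40750637-40765389, plus strand) encodes the A protein of U1, which binds another stem loop of the same RNA. It had -1.56, -0.51 and -1.93 in the Tau-S199E libraries, -0.16, 0.26 and 0.40 in those of Tau-K174Q, 0.86, -0.02 and -0.27 in those of Tau-K174Q-S199E, and 0.33, 1.37 and 1.23 in those of Tau-WT. Here the 3 Tau-S199E libraries were the lowest of the 12, and Tau-WT library 1 lay among those of the other mutants. Tau-S199E minus Tau-WT came to -2.31 ± 0.47 (limma adjusted p = 0.00993). In the authors' deposited table the log2 fold change was -1.33 for SNRNP70 and 1.06 for SNRPA.

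Of the 4 genes of the Sm and LSm rings, the protein rings that hold spliceosomal RNAs, 3 rose with Tau-S199E and 1 did not pass. SNRPG (ENSG00000143977, chr2:70281362-70293771, minus strand) encodes SmG, shared by the U1, U2, U4 and U5 particles. It stood at 0.89, 0.86 and 2.13 in the Tau-S199E libraries, 0.27, 0.29 and -0.20 in those of Tau-K174Q, -0.75, -0.58 and 0.09 in those of Tau-K174Q-S199E, and -0.25, -1.51 and -1.23 in those of Tau-WT. No library of another construct reached those of Tau-S199E, while Tau-WT library 1 lay among Tau-K174Q-S199E. The difference was 2.29 ± 0.45 (limma adjusted p = 0.00981). LSM4 and LSM2, which belong to the ring on U6 RNA and to the related ring of mRNA decay, rose by 2.21 ± 0.49 and 2.03 ± 0.56, although LSM2 in Tau-WT ran from -1.87 to 0.27. For SNRPF, which encodes SmF, the difference was 1.40 ± 0.61 (limma adjusted p = 0.056). The authors' deposited table gave log2 fold changes of -1.65 for SNRPG, -1.59 for SNRPF, -1.22 for LSM2 and -0.94 for LSM4. GENCODE names 20 pseudogenes after SNRPG and 4 after SNRPF, and reads that fit several copies make their values less certain.

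U2 and 3′ splice site factors split 3 to 4, with 1 gene not passing. SNRPA1, the A′ protein of U2, rose by 2.23 ± 0.50 with Tau-S199E, and SF3A3, a subunit of SF3a, by 1.89 ± 0.58. For SF3A3 that rise came with 1 far library: it had 2.83 in library 12, against 0.29 and 0.80 in the other Tau-S199E libraries. The SF3b complex, which holds the branch point, also has PHF5A, which the name rule does not take and which rose by 2.22 ± 0.46. Of the 4 members in this complex, 3 went the other way. SF3B5 (ENSG00000169976, chr6:144094881-144095573, minus strand), its smallest subunit, had -0.97, -0.56 and -1.79 in the Tau-S199E libraries, -0.55, -0.15 and 0.06 in those of Tau-K174Q, 1.22, -0.06 and -0.74 in those of Tau-K174Q-S199E, and 1.2, 1.11 and 1.23 in those of Tau-WT. The Tau-WT libraries lay within a narrow band at the top that only Tau-K174Q-S199E library 16 reached. SF3B5 fell by 2.29 ± 0.50 (limma adjusted p = 0.0102), SF3B3 by 1.97 ± 0.61 and SF3B2 by 1.91 ± 0.54, whereas SF3B4 stood 1.42 ± 0.64 above Tau-WT without passing. The authors' deposited table listed log2 fold changes of -1.84 for SNRPA1, -1.30 for SF3A3, 1.34 for SF3B5, 1.13 for SF3B3, 0.84 for SF3B2 and -1.45 for SF3B4.

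U2AF1 and U2AF1L5 gave opposite results although they are copies of one sequence. U2AF1 encodes the small subunit of U2AF, which reads the AG at the end of the intron. U2AF1 lies at chr21:43092956-43107587 and U2AF1L5 at chr21:6484623-6499261, both on the minus strand of GRCh38, and the stretch that holds U2AF1L5 is known as a faulty duplicate of that assembly. Their coding sequences in GENCODE v29 were identical over 720 bases. A longer transcript of each, 1675 bases in both genes, differed at 2 positions counted from the 5′ end, C144T and G463C (U2AF1 base first), and their last 1212 bases were identical. The coding part of the last exon (U2AF1 at chr21:43093105-43093249, U2AF1L5 at chr21:6484772-6484916, minus strand) is shown because a 3′ library reads near this end, followed by the windows around the 2 differences, in which the capital marks the base that differs (U2AF1 at chr21:43105095-43105123 and chr21:43104776-43104804, U2AF1L5 at chr21:6496773-6496801 and chr21:6496454-6496482).
U2AF1 last coding exon: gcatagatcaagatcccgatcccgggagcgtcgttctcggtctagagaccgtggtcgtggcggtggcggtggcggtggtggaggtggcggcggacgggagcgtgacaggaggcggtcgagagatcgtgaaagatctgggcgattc
U2AF1L5 last coding exon: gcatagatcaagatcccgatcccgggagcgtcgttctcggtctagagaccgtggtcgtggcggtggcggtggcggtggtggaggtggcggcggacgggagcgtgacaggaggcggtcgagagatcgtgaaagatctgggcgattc
U2AF1 at 144: tcctaaggtgggttCggtcagtcccctaa
U2AF1L5 at 144: tcctaaggtgggttTggtcagtcccctaa
U2AF1 at 463: ctcaccacaccggtGttttcaagagagaa
U2AF1L5 at 463: ctcaccacaccggtCttttcaagagagaa

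The 2 exons are the same letter for letter. U2AF1 (ENSG00000160201) had -1.20, -0.99 and -1.09 SD units in the Tau-S199E libraries, -1.18, 0.71 and 0.83 in those of Tau-K174Q, 0.89, 0.72 and -1.19 in those of Tau-K174Q-S199E, and 0.73, 0.84 and 0.92 in those of Tau-WT. The 12 values fell into a low set of 5, made of the 3 Tau-S199E libraries, Tau-K174Q library 4 and Tau-K174Q-S199E library 18, and a high set of 7, with nothing between -0.99 and 0.71. U2AF1L5 (ENSG00000275895) had 0.62, 1.06 and 1.45 in the Tau-S199E libraries, 0.66, 0.40 and -0.03 in those of Tau-K174Q, -1.73, -0.71 and 0.65 in those of Tau-K174Q-S199E, and -0.11, -1.50 and -0.77 in those of Tau-WT. Its 12 values showed no such gap, with the Tau-S199E group above the Tau-WT group. With Tau-S199E, U2AF1 fell by 1.92 ± 0.66 (limma adjusted p = 0.0267) and U2AF1L5 rose by 1.84 ± 0.61 (limma adjusted p = 0.024). On the log2 scale the authors' deposited table gave a fold change of 7.71 for U2AF1, the largest in size of the 40, and -1.62 for U2AF1L5. How reads that fit both copies were assigned is not given in the sources used here, a sum over the pair cannot be formed from standardised values, and both results are uncertain for this reason.

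In the tri-snRNP and the B complex built from it, 2 genes rose with Tau-S199E, 2 fell and 2 did not pass. PRPF31, a U4/U6 protein, rose by 2.13 ± 0.55 and PRPF8, the scaffold of the catalytic centre, by 1.72 ± 0.63, with PRPF8 in Tau-WT ranging from -2.58 to 0.00. PRPF4 (ENSG00000136875, chr9:113275343-113292905, plus strand), another U4/U6 protein, had -0.74, -0.73 and -2.00 in the Tau-S199E libraries, -0.33, -0.19 and -0.02 in those of Tau-K174Q, -0.16, 0.87 and -0.22 in those of Tau-K174Q-S199E, and 0.44, 1.68 and 1.39 in those of Tau-WT. Tau-S199E was the lowest group and Tau-WT the highest, overlapped by Tau-K174Q-S199E library 17. PRPF4 fell by 2.33 ± 0.47 (limma adjusted p = 0.01), and PRPF38A, which joins in the B complex, by 2.21 ± 0.55. PRPF6, a bridge between U5 and U4/U6, stood 1.57 ± 0.67 below Tau-WT (limma adjusted p = 0.0526) and PRPF4B, a kinase of tri-snRNP proteins, 0.95 ± 0.67 below (limma adjusted p = 0.196). SNRNP48, of the minor spliceosome that removes a rare class of introns, fell by 2.01 ± 0.61. The authors' deposited table listed log2 fold changes of -1.63 for PRPF8, -1.22 for PRPF31, 1.17 for PRPF4, 0.67 for PRPF38A, 0.93 for PRPF6, 0.91 for PRPF4B and 0.94 for SNRNP48.

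SR proteins, which bind exonic enhancers and recruit the spliceosome, split evenly with Tau-S199E, 2 up and 2 down. SRSF1 (ENSG00000136450, chr17:58003360-58007346, minus strand) had 0.44, 0.49 and 1.61 in the Tau-S199E libraries, 0.85, 0.76 and 0.36 in those of Tau-K174Q, -0.47, -1.13 and 0.71 in those of Tau-K174Q-S199E, and -0.87, -1.36 and -1.40 in those of Tau-WT. Tau-S199E, Tau-K174Q and Tau-K174Q-S199E library 18 were all above the mean, and the remaining 5 libraries all below it. SRSF7 (ENSG00000115875, chr2:38743599-38751494, minus strand), which also helps mRNA export, had 0.69, 0.42 and 1.92 in the Tau-S199E libraries, 0.67, 0.46 and 0.27 in those of Tau-K174Q, -0.92, -0.73 and 0.66 in those of Tau-K174Q-S199E, and -1.27, -1.38 and -0.78 in those of Tau-WT. Its libraries fell on the same sides of the mean as those of SRSF1. With Tau-S199E, SRSF1 rose by 2.06 ± 0.49 (limma adjusted p = 0.0109) and SRSF7 by 2.15 ± 0.50 (limma adjusted p = 0.0104). SRSF11 (ENSG00000116754, chr1:70205682-70253052, plus strand) had -0.31, -1.03 and -1.67 in the Tau-S199E libraries, -0.17, -0.50 and -0.27 in those of Tau-K174Q, 1.87, 0.19 and -0.52 in those of Tau-K174Q-S199E, and 1.55, 0.67 and 0.22 in those of Tau-WT. All Tau-WT libraries lay above all those of both single mutants. SRSF11 fell by 1.82 ± 0.64 (limma adjusted p = 0.0286) and SRSF4 by 1.62 ± 0.63 (limma adjusted p = 0.0382). In the authors' deposited table SRSF1 had a log2 fold change of -3.36, the lowest of the 40, SRSF7 -2.24 with the smallest adjusted p of the 40 (0.000244), SRSF11 1.29 and SRSF4 0.94.

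Among the hnRNPs, which coat nascent transcripts and often oppose SR proteins, 3 rose with Tau-S199E, 1 fell and 1 did not pass. HNRNPL (ENSG00000104824, chr19:38836388-38852347, minus strand), which binds CA-rich RNA, had 0.73, 1.03 and 0.99 in the Tau-S199E libraries, 0.46, 0.69 and 0.50 in those of Tau-K174Q, -0.58, -0.92 and 0.68 in those of Tau-K174Q-S199E, and -0.34, -2.11 and -1.13 in those of Tau-WT. The Tau-S199E values were close together and above all others, with no far library 12. HNRNPA3 (ENSG00000170144, chr2:177212563-177223958, plus strand), of the A/B family, had 0.24, 0.13 and 0.64 in the Tau-S199E libraries, 1.22, 0.92 and 0.84 in those of Tau-K174Q, -0.72, -1.06 and 1.25 in those of Tau-K174Q-S199E, and -1.25, -1.44 and -0.78 in those of Tau-WT. Here all Tau-K174Q libraries lay above all Tau-S199E libraries. With Tau-S199E, HNRNPL rose by 2.11 ± 0.51 (limma adjusted p = 0.0109), HNRNPF, which binds G-tracts, by 1.74 ± 0.58 and HNRNPA3 by 1.49 ± 0.55 (limma adjusted p = 0.0322). HNRNPM fell by 1.64 ± 0.65 (limma adjusted p = 0.0409), and HNRNPU, a nuclear scaffold protein, stood 1.51 ± 0.64 above Tau-WT (limma adjusted p = 0.0513). The authors' deposited table gave log2 fold changes of -2.28 for HNRNPL, -1.84 for HNRNPF, -1.67 for HNRNPA3, -1.07 for HNRNPU and 1.06 for HNRNPM. GENCODE names 16 pseudogenes after HNRNPA3, and reads that fit several copies make its values less certain.

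RBM genes share an RNA recognition motif and little else in function, and 2 rose while 4 fell with Tau-S199E. RBM28 (ENSG00000106344, chr7:128297685-128343908, minus strand), a nucleolar protein linked to ribosome assembly, had -0.98, -0.85 and -1.67 in the Tau-S199E libraries, -0.44, -0.08 and 0.32 in those of Tau-K174Q, -0.15, 0.44 and -0.33 in those of Tau-K174Q-S199E, and 2.13, 0.60 and 1.01 in those of Tau-WT. All 3 Tau-S199E libraries were at the bottom, all 3 Tau-WT libraries at the top, and the other constructs lay between and overlapped each other. RBM28 fell by 2.41 ± 0.43 (limma adjusted p = 0.00968). RBM8A, the Y14 subunit of the exon junction complex, fell by 2.11 ± 0.55, RBM33 by 1.91 ± 0.54 and RBM39, a splicing coactivator related to U2AF, by 1.54 ± 0.64 (limma adjusted p = 0.0489). RBM27 rose by 1.86 ± 0.65, with 2.33 in library 12 against 0.55 and 0.33, and RBM38, a p53 target that binds mRNA, by 1.68 ± 0.61. The authors' deposited table gave log2 fold changes of 1.06 for RBM28, 0.68 for RBM8A, 1.05 for RBM33, 1.18 for RBM39, -1.75 for RBM27 and -1.61 for RBM38.

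The cap, 3′ end and export factors held the member with the plainest Tau-K174Q pattern. NCBP1 (ENSG00000136937, chr9:97633626-97673748, plus strand), the large subunit of the nuclear cap-binding complex, had 0.09, 0.92 and -0.52 in the Tau-S199E libraries, -1.44, -1.33 and -1.51 in those of Tau-K174Q, 1.56, 0.90 and 0.43 in those of Tau-K174Q-S199E, and 0.32, 0.15 and 0.43 in those of Tau-WT. The 3 Tau-K174Q libraries stood alone below the other 9. With Tau-S199E the difference from Tau-WT was -0.14 ± 0.38 (limma adjusted p = 0.721), and it was 0.20 without library 12. CSTF1 (ENSG00000101138, chr20:56392371-56406369, plus strand), a subunit of the cleavage stimulation factor, had 0.71, 0.93 and 2.44 in the Tau-S199E libraries, -0.20, 0.28 and 0.00 in those of Tau-K174Q, -0.51, -0.83 and -0.05 in those of Tau-K174Q-S199E, and -0.82, -1.11 and -0.85 in those of Tau-WT. Tau-S199E lay above the other 9 libraries. CSTF1 rose by 2.28 ± 0.43 (limma adjusted p = 0.00979). THOC3 (ENSG00000051596, chr5:175917873-176034680, minus strand), of the THO complex that couples transcription to export, had 0.54, 0.29 and 1.39 in the Tau-S199E libraries, 0.91, 0.76 and 0.51 in those of Tau-K174Q, -0.39, -1.52 and 0.83 in those of Tau-K174Q-S199E, and -1.37, -1.21 and -0.73 in those of Tau-WT. Both single mutants were above the mean in all libraries, as was Tau-K174Q-S199E library 18. THOC3 rose by 1.84 ± 0.56 (limma adjusted p = 0.0185). NCBP2-AS2, a separate small protein-coding gene beside NCBP2 on the other strand that the name rule also takes, fell by 2.19 ± 0.50. The authors' deposited table listed log2 fold changes of 1.68 for NCBP1, -1.32 for CSTF1, -2.78 for THOC3 and 1.0 for NCBP2-AS2.

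**Figure D2:**
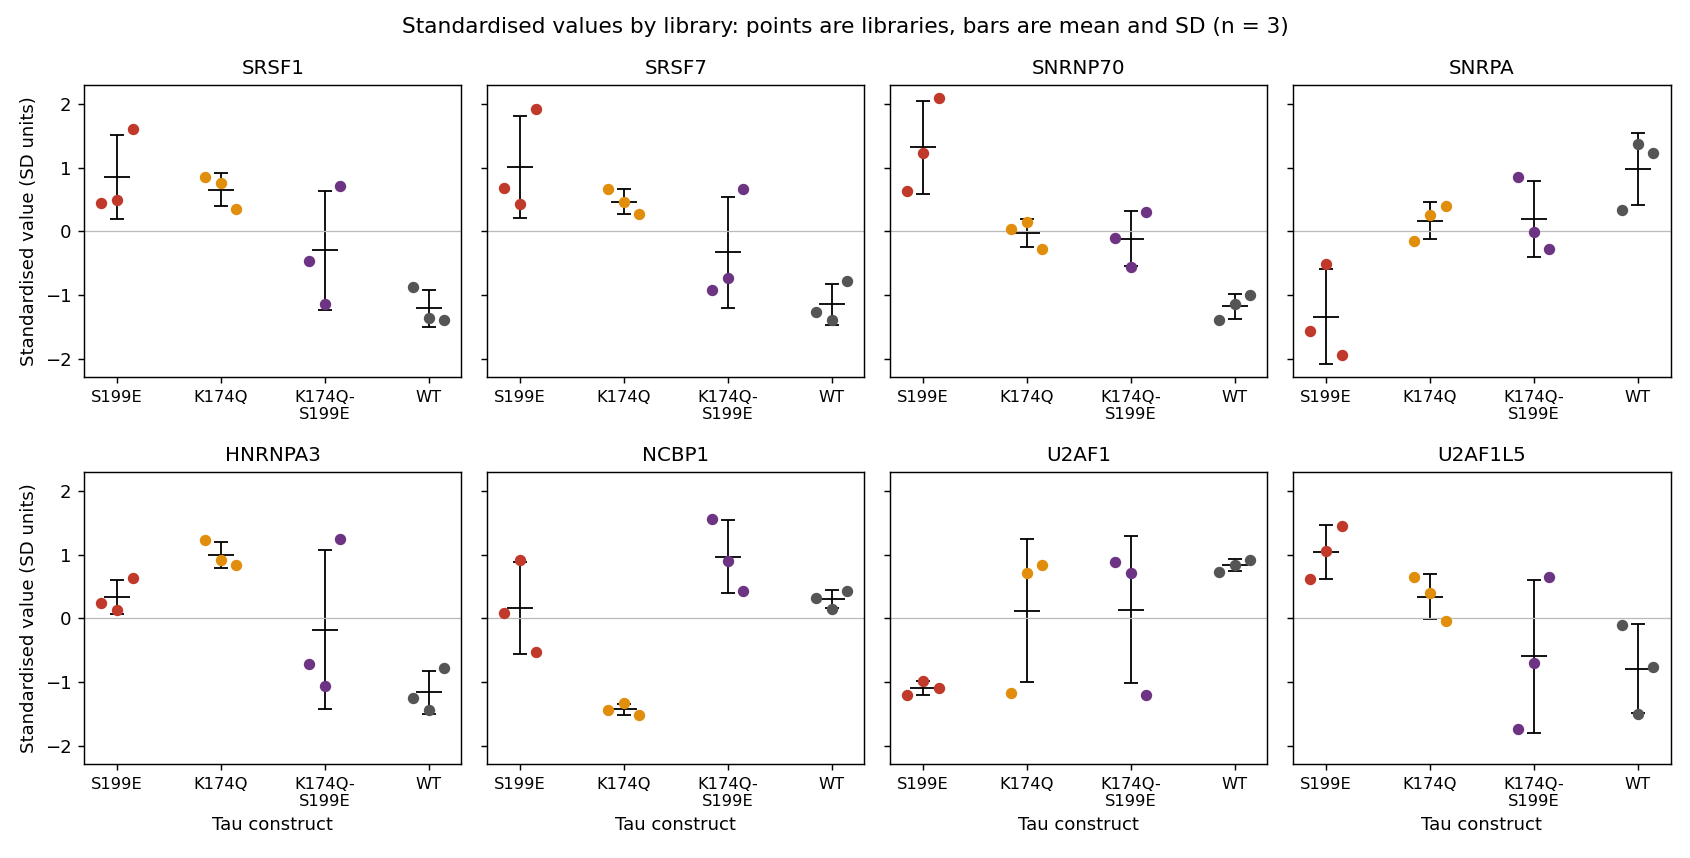
Standardised values (SD units, vertical axis) of 8 genes by tau construct (horizontal axis), with 1 point a library and the mean and SD (n = 3) as bars. NCBP1 is low in all 3 Tau-K174Q libraries (-1.33 to -1.51), U2AF1 falls into a low and a high set, and Tau-K174Q-S199E library 18 is the highest point of its group in SRSF1, SRSF7 and HNRNPA3.

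With Tau-K174Q alone the same 40 genes leaned from Tau-WT to the sides seen with Tau-S199E, but none passed. The lean was shared by 1675 of the 1676 genes of the table. HNRNPA3 stood 2.15 ± 0.55 SD units above Tau-WT, SRSF1 1.86 ± 0.49 above and NCBP1 1.73 ± 0.38 below, each with a limma adjusted p of 0.066, the lowest among the members. By limma with the ordinary variance of each gene 0 of 40 passed (0% of the table), while 24 (60%; 51.9% of the table) had an unadjusted p under 0.05, 15 above and 9 below Tau-WT. With moderated variances limma called 12 higher (34.9% of the table) and 14 lower (25% of the table), and a fit on the 6 libraries alone called 11 higher (27.7% of the table) and 8 lower (21.2% of the table). All 3 Tau-K174Q libraries lay above all 3 of Tau-WT in 19 members (43.6% of the table) and below in 16 (37.2% of the table). The exact permutation test over 3 against 3 libraries, two-sided, gave 0.1 for each of these, which is the smallest p it can give. This comparison uses the Tau-WT libraries of the comparison above, so the shared sides are no independent result. The choice of the table also largely sets them.

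A total of 10 of the 40 members lay further from Tau-WT with Tau-K174Q than with Tau-S199E (25%; 15.5% of the table): SNRPF, SF3B4, PRPF8, PRPF4B, HNRNPA3, HNRNPF, HNRNPU, RBM38, RBM39 and NCBP1. For PRPF4B the difference from Tau-WT was -0.95 ± 0.67 with Tau-S199E beside -1.73 ± 0.67 with Tau-K174Q, and for SNRPF it was 1.40 ± 0.61 with Tau-S199E beside 1.95 ± 0.61 with Tau-K174Q. At the other end stood SF3A3, at 1.89 ± 0.58 with Tau-S199E beside 0.27 ± 0.58 with Tau-K174Q, and LSM2, at 2.03 ± 0.56 with Tau-S199E beside 0.69 ± 0.56 with Tau-K174Q. Set directly against Tau-S199E, Tau-K174Q had 0 members called by limma with either variance (0.0597% of the table with the ordinary one, 0% with moderated ones), and 8 (20%; 16.1% of the table) had an unadjusted p under 0.05. The smallest belonged to NCBP1, -1.59 ± 0.38 (limma adjusted p = 0.195), SNRNP70, -1.35 ± 0.37 (0.229 in the same limma test), and SNRPA, 1.5 ± 0.47 (0.253). In 8 members the Tau-K174Q libraries all lay above those of Tau-S199E (18.6% of the table) and in 8 below (17.7% of the table).

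**Figure D3:**
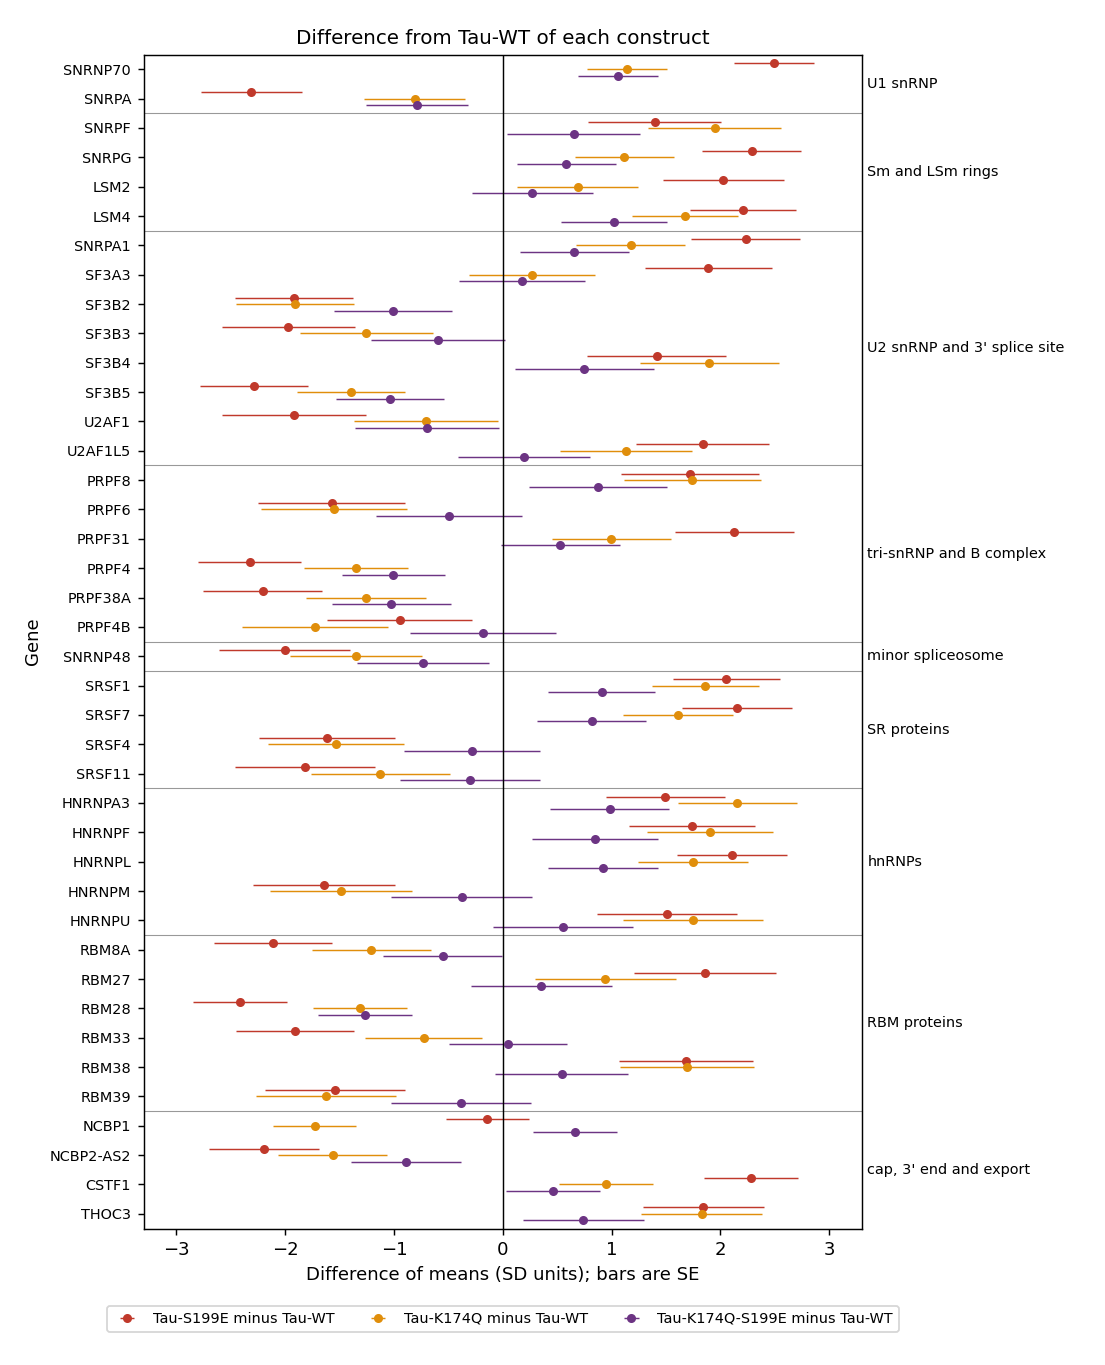
Difference of the construct means from Tau-WT (SD units, horizontal axis; bars are the SE) for each of the 40 genes (vertical axis, grouped by role), for Tau-S199E, Tau-K174Q and Tau-K174Q-S199E. NCBP1 lies at -0.14 for Tau-S199E and -1.73 for Tau-K174Q, and the largest distance of Tau-K174Q-S199E from Tau-WT is -1.26, in RBM28.

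With both substitutions in 1 molecule 0 members passed the test against Tau-WT. RBM28 stood 1.26 ± 0.43 SD units below Tau-WT, SNRNP70 1.06 ± 0.37 above and PRPF4 1.0 ± 0.47 below, each with a limma adjusted p of 0.533. By limma 0 of 40 passed with the ordinary or with moderated variances (0% of the table with each), and 2 members, RBM28 and SNRNP70, had an unadjusted p under 0.05 (5%; 7.58% of the table). The Tau-K174Q-S199E libraries lay above all those of Tau-WT in 3 members, SNRNP70, LSM4 and NCBP1 (7.28% of the table), and below in 1, RBM28 (4.3% of the table). A p that misses the threshold does not show that a gene is alike in both groups. With 3 libraries, of which 1 lay apart, the SE of these differences ran up to 0.67.

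Against Tau-S199E, Tau-K174Q-S199E lay on the Tau-WT side in all 40 members, a direction that the choice of the table largely sets. Limma called 0 of 40 with the ordinary variance (0.119% of the table), 21 (52.5%; 56.4% of the table) had an unadjusted p under 0.05, and moderated variances called 12 higher and 11 lower (34.4% of the table each way). Without library 18 the ordinary test called 16 higher (37.5% of the table) and 19 lower (40.9% of the table). CSTF1 had -0.51, -0.83 and -0.05 with Tau-K174Q-S199E and 0.71, 0.93 and 2.44 with Tau-S199E, a difference of -1.83 ± 0.43 that did not pass (limma adjusted p = 0.0644). RBM33 had 1.45, 0.47 and 0.16 with Tau-K174Q-S199E and -0.88, -0.64 and -2.27 with Tau-S199E, a difference of 1.96 ± 0.54 (limma adjusted p = 0.0644). Neither gene's groups overlapped. Against Tau-K174Q, 0 of 40 passed by limma's ordinary test (0% of the table), 2 (NCBP1 and PRPF4B) had an unadjusted p under 0.05 (5%; 8.23% of the table), and moderated variances called 1, NCBP1, at 2.39 ± 0.38 (0.119% of the table), whereas its adjusted p was 0.405 in the ordinary limma test. Without library 18 that test called 2 higher (3.1% of the table) and 3 lower (5.37% of the table).

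The interaction is the effect of K174Q in the S199E background less its effect in the wild-type one, (Tau-K174Q-S199E minus Tau-S199E) minus (Tau-K174Q minus Tau-WT). By limma 39 of the 40 members passed (97% of the table), 18 with a positive value (45.5% of the table) and 21 with a negative one (51.5% of the table), and these counts are not independent of how the table was selected. With moderated variances all 40 passed, 19 positive (47.1% of the table) and 21 negative (52.9% of the table). SRSF1 had the most negative value, -3.01 ± 0.70 (limma adjusted p = 0.0182). U2AF1, with the largest fold change in the authors' deposited table, was the member that missed the threshold, at 1.94 ± 0.94 (limma adjusted p = 0.0728).

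The authors' deposited table gave 19 members a positive and 21 a negative fold change, so 52.5% were negative, as were 52.9% of all genes listed. Their median size was 1.29 on the log2 scale in the authors' deposited table, against 1.36 for all genes, and their adjusted p ran from 0.000244 to 0.0418. Positive ones had a median of 1.06 and negative ones of -1.62 in the authors' deposited table. The members' clusters 1 to 4 in the authors' deposited table held 12, 7, 11 and 10 genes, or 30%, 17.5%, 27.5% and 25%, against 31.9%, 15.2%, 21.1% and 31.8% of all genes. The contrast behind these fold changes is not named, so their sign is not read as a rise or a fall.

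**Figure D4:**
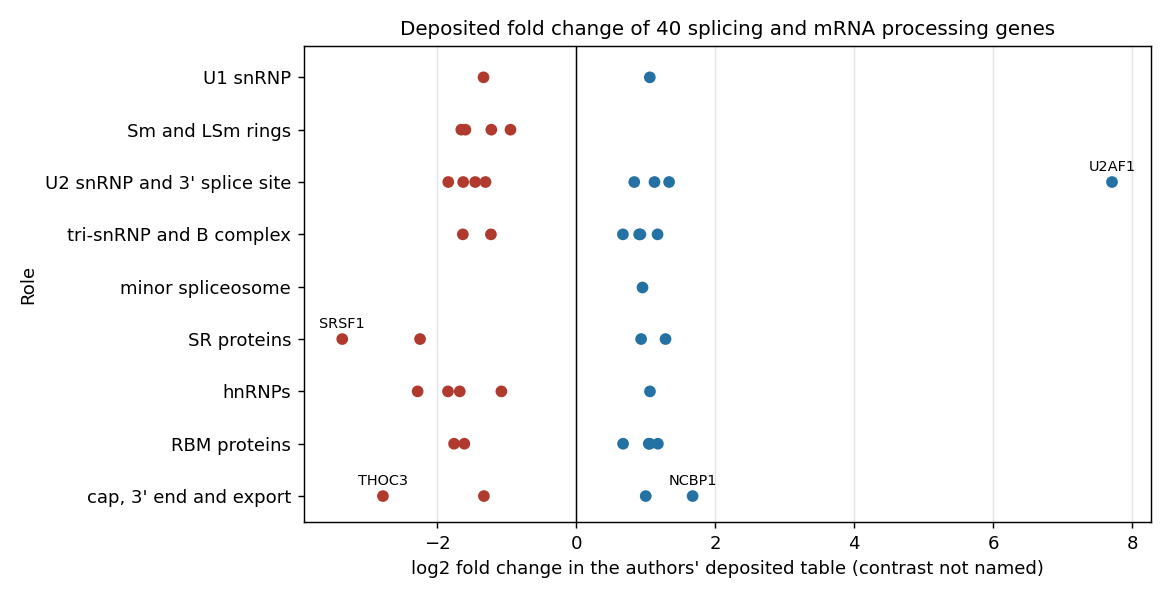
Log2 fold change in the authors' deposited table (horizontal axis; contrast not named) of the 40 genes by role (vertical axis), with 1 point a gene, negative in red and positive in blue. U2AF1 at 7.71, SRSF1 at -3.36 and THOC3 at -2.78 lie far out, and each role with 2 or more genes other than the Sm and LSm rings holds both signs.

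Other genes of the pathway rose and fell with Tau-S199E too. The table held 42 entries of 6 further lists, of which 22 rose and 15 fell, while over all genes 48.3% rose and 41.8% fell; no list was tested against the others. Of 56 further spliceosome genes 9 were in the table, and 4 rose and 4 fell, among them SF1, the branch point binding protein, by 2.34 ± 0.46, PHF5A, a subunit of SF3b, by 2.22 ± 0.46 and SART1, a tri-snRNP protein, by 2.21 ± 0.45. In the same list IK fell by 2.37 ± 0.41, PPIL1 by 2.29 ± 0.48 and ZMAT2 by 2.26 ± 0.51, and DHX38 did not pass. Of 66 other splicing regulators 9 were listed, MATR3 under 2 identifiers, and 4 entries rose and 5 fell, with SON at 2.15 ± 0.55 and EWSR1 at 2.10 ± 0.58 among the rises and YBX1 at -2.26 ± 0.49 and ZRANB2 at -2.16 ± 0.57 among the falls. Exon junction and export genes rose in 4 of 5 listed (PCID2 by 2.15 ± 0.43, EIF4A3 by 2.09 ± 0.48, NXF1 by 2.05 ± 0.45) and PNN fell by 1.76 ± 0.68. RBM8A of the exon junction complex, a member and so outside this list, fell by 2.11 ± 0.55. Cap and 3′ end genes rose in 5 of 8 (INTS9 by 2.37 ± 0.38, NUDT21 by 2.01 ± 0.61, RNMT by 1.98 ± 0.55), with SYMPK at -2.07 ± 0.60 the only fall. Among snRNP assembly genes CLNS1A rose by 2.14 ± 0.49 and WDR77 by 1.51 ± 0.63, while their partner PRMT5 fell by 2.19 ± 0.51. Of 7 mRNA decay genes 3 rose (EXOSC10 by 2.28 ± 0.49, EDC4 by 2.0 ± 0.58, EXOSC7 by 1.80 ± 0.61) and 3 fell (CNOT11 at -2.20 ± 0.54, MTREX at -2.08 ± 0.56, BTG1 at -1.88 ± 0.63). The median size of the difference was 1.92 for the 40 members and 1.99 for all genes of the table. In the comparisons of Tau-K174Q and of Tau-K174Q-S199E with Tau-WT, limma's ordinary test called 0 genes of these 6 lists, as it did over the whole table, and moderated variances called 16 higher and 11 lower of the 42 entries with Tau-K174Q (34.9% and 25% of the table) and 0 with Tau-K174Q-S199E.

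A total of 4 pairs of entries that share sequence, overlap at an end or share a name had opposite signs. They were picked after their values were seen, and the table holds both signs in similar shares. Besides U2AF1 and U2AF1L5, RBM27 rose by 1.86 ± 0.65 with Tau-S199E while AC091959.3, which overlaps its 3′ end on the same strand, fell by 2.02 ± 0.50. The 3′ end of HNRNPU overlaps COX20 on the opposite strand, and their differences from Tau-WT were 1.51 ± 0.64 and -2.20 ± 0.53 (limma adjusted p = 0.0513 and 0.0109). The 2 identifiers of MATR3 differed from Tau-WT by -1.98 ± 0.58 and 0.93 ± 0.56. In all, the last 500 bases of 10 members overlap another gene in GENCODE v29, and the strand setting of the authors' counting is not given in the sources used here. How far such sharing sets these values was not tested.

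Promoters of the members were read from RefSeq (GRCh38.p14, 250 bases before to 50 after each start), which held 34 of the 40 genes. The letters CCGGAAGT, bound by ETS factors, stood on either strand in 9 of 34 members (26.5%), against 11.9% of 1248 other genes of the table and 4.95% of all 27305 genes with a promoter. The 9 were CSTF1, PRPF6, RBM28, RBM8A, SF3A3, SF3B2, SF3B4, SNRPA1 and SRSF4, 4 with a negative and 5 with a positive fold change in the authors' deposited table. A gene with several starts had several chances to hold a match. CCAAT stood in 17 members (50%; 43.4% and 39.7% in the same 2 backgrounds), TGACGT in 5 (14.7%; 14.3% and 9.64%), AAGATGGC of YY1 in 4 (11.8%; 8.89% and 3.52%) and TATAAA in 2 (5.88%; 7.21% and 14%). TGACGTCA, which contains TGACGT, was in 1 member (2.94%; 3.61% and 2.25%), and the NRF1 motif was in 0 (3.77% and 1.52%). CSTF1 also has another promoter window (chr20:56392395-56392694, plus strand), not printed, which holds its TGACGTCA and AAGATGGC matches and no ETS letters. Promoters of CSTF1 (chr20:56392129-56392428, plus strand), which rose with Tau-S199E, and of RBM28 (chr7:128343859-128344158, minus strand), which fell, are printed below. They show that both genes hold the ETS letters, with each match to a searched motif in the printed window in capitals.
CSTF1 promoter: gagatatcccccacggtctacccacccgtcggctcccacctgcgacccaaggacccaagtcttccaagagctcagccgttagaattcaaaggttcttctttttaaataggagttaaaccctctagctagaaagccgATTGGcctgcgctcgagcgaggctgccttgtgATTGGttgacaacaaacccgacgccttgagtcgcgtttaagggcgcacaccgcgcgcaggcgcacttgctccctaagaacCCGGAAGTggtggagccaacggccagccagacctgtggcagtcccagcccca
RBM28 promoter: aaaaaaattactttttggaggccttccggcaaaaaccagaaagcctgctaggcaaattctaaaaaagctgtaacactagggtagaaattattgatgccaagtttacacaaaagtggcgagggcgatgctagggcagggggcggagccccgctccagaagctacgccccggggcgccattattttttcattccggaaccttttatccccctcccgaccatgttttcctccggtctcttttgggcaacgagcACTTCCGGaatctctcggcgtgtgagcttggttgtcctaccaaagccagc
In CSTF1 the capitals ATTGG are CCAAT on the other strand, and in RBM28 ACTTCCGG is CCGGAAGT on the other strand. A match describes the letters of the window and says nothing of binding.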

How the data were processed

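QuantSeq 3′ mRNA libraries were made from SH-SY5Y cells 24 h after transfection, with 400 ng of RNA, per the labels' protocols. RSEM 1.2.31, STAR 2.5.3a, DESeq2 and the build GRCh38 are named in the submitters' processing notes, with no role or order. For the counting rule, gene filter and strand setting no statement was given in the sources used here. All library columns as deposited are a score, each gene standardised by the authors to mean 0 and SD 1 over 12 libraries, as the values show (SD units). The deposited table also gives a log2 fold change and an adjusted p-value, per the file headers, and a cluster number. The columns carry library numbers and not the replicate numbers of the labels, and all per-sample columns were used. Nothing in the labels says that replicates are separate cultures, and the p-values cover only how far these libraries spread, which may be technical.

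The 40 members and the gene lists were chosen with earlier results of these data known. Group means were fitted over all 12 libraries with limma 3.58.1 (R 4.3.3). Each contrast was tested two-sided with the ordinary residual variance of each gene (8 degrees of freedom) and Benjamini-Hochberg adjustment over 1676 genes, threshold 0.05. SE values come from this fit. The script was tested on simulated data. Depth is unknown, so no interval from counts is given. Alternatives were moderated variances, a fit on the groups compared, ranks within a gene and leaving out each library, and, added after the data were seen, leaving out libraries 12 and 18 together. Values in all libraries are given for the 4 largest positive and negative deposited fold changes, the 3 largest rises and falls with Tau-S199E, the 3 smallest p in 3 other comparisons and the 2 smallest deposited adjusted p. Of each gene list up to 3 members each way are named, and some that this rule would name are not reported here. U2AF1L5, RBM33 against Tau-S199E and the overlapping genes were named after their values were seen. Sequences come from GENCODE v29 and RefSeq.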

Additional observations from a re-analysis of the deposited data

Results flagged for a closer look

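The effect of K174Q was called different in the S199E and the wild-type background for 39 of the 40 members by limma's interaction test. The same held for 97% of the table, whose genes are a selection and not independent of these libraries. With moderated variances all 40 members and all 1676 genes passed. The deposited fold change also had the sign of the interaction in all 1676 genes. Being listed thus largely sets the count of 39, and no conclusion on the effect of K174Q is drawn from it.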

How the results depend on the processing

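No paired analysis was possible because the deposited columns carry library numbers and not the replicate numbers of the labels. With Tau-S199E against Tau-WT, leaving out 1 library gave 10 to 16 members that rose (28.5% to 45.4% of the table). Between 8 and 13 members fell (21.2% to 38.2% of the table). The counts were lowest without library 12, and without Tau-WT library 1 there were 10 that fell (33.1% of the table). Without libraries 12 and 18 together 17 rose and 13 fell (43.8% and 35.6% of the table). NCBP1 turned from -0.14 to 0.20 without library 12 and also without both (range -0.52 to 0.20 over the fits with 1 fewer library). The Tau-K174Q comparison with Tau-WT called 0 members, but 12 higher and 14 lower with moderated variances (34.9% and 25% of the table). With only the groups compared it called 11 and 8 (27.7% and 21.2% of the table). Leaving out a library of these groups gave 0 (0% of the table). The libraries of the other groups, 12 and 18 among them, stayed in the shared variance, so this 0 does not test their part. Tau-K174Q-S199E against Tau-S199E called 0, but 12 higher and 11 lower with moderated variances (34.4% of the table each way). On ranks it called 3 and 6 (11.3% and 13.2% of the table). With 1 library left out it called 0 to 16 and 0 to 19 (0% to 37.5% and 0% to 40.9% of the table). Tau-K174Q-S199E against Tau-K174Q called 1 higher with moderated variances (0.119% of the table). With 1 library left out it called 0 to 2 and 0 to 3 (0% to 3.1% and 0% to 5.37% of the table). Tau-K174Q-S199E against Tau-WT and Tau-K174Q against Tau-S199E gave 0 members under each alternative run (at most 0.0597% of the table either way). The interaction kept 14 to 19 positive calls with 1 library left out (33% to 45.9% of the table). It kept 17 to 21 negative calls (42.4% to 51.7% of the table). The causes were not tested. A pseudocount, a filter on low values and a count model could not be applied to standardised values, and without depth no limit of detection can be given.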
